A study of Mus musculus with 2 samples.

Results

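Fibroblast growth factor (FGF) signaling was examined in single cells of the healing mouse calvaria through 10 genes chosen by symbol out of 32285 in the deposited matrices: the ligands Fgf2, Fgf7 and Fgf18, the receptors Fgfr1, Fgfr2 and Fgfr3, and the feedback and target genes Spry1, Spry2, Dusp6 and Etv4. No expression value entered the choice, although earlier results of the same data were known when the list was drawn up. Each of the 10 genes was matched once by symbol, and each was detected in both libraries.

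Cells came from C57BL/6 mice (C57BL/6J in the study's text) aged 2 months, 7 days after a circular defect of 1.8 mm had been made in the frontal bone of the skull vault. One library was made from 5 pooled mice injected intraperitoneally with gambogic amide (GA), a small molecule agonist of the nerve growth factor receptor TrkA, at a labeled dose of 1.2 mg/kg in 100 µL of 10% DMSO. The other, the control library, was made from 5 pooled mice given the 10% DMSO vehicle alone. In both groups injections began 24 h before injury and were labeled as daily for 1 week. The study's methods give 2 mg/kg, so the dose behind these cells is uncertain. The 4 weeks of injections given there run past the 7 days after injury at which these cells were taken. The GA matrix held 9322 cell barcodes and the control matrix 8718. After filtering, 8376 GA and 7555 control cells were kept, with medians of 10930 and 16336 unique molecular identifiers (UMIs, counted mRNA molecules) per cell. With 1 library per condition there was no replicate check: every difference below compares 2 libraries, and every 95% interval covers counting error only. The 2 libraries shared 23 barcodes, of which 0 belonged to mesenchymal cells in both libraries at once.

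FGFs are secreted proteins that bind FGF receptors, tyrosine kinases on the cell surface, with heparan sulfate as a cofactor. The receptors signal through the adaptor Frs2 and the Ras-ERK kinase cascade, and ERK activity switches on genes that restrain the same cascade, among them the Sprouty genes and the ERK phosphatase Dusp6, along with the ETS transcription factors Etv4 and Etv5. In the skull, FGF18 and FGF2 are known regulators of osteoblast growth and maturation, activating mutations of FGFR1, FGFR2 and FGFR3 cause early fusion of the sutures, and FGF7, a mesenchymal ligand, acts mainly on the epithelial isoform of FGFR2.

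Dusp6 (GRCm38, chr10:99263231-99267489, plus strand) and Fgf7 (chr2:126034658-126091185, plus strand) were both more than 1.5-fold lower in GA over the lineage, as described below, and the Sprouty genes are the other feedback genes with a listed promoter. The 250 bases before the RefSeq start site of each (GRCm38.p6, printed 5′ to 3′ in the sense of the gene) are given so that the feedback genes can be compared at sequence level. Capitals mark a 5-base form of the ETS transcription factor site, CGGAA or its reverse complement TTCCG. The windows are chr10:99262981-99263230 for Dusp6, chr3:37639697-37639946 for Spry1, chr14:105896820-105897069 (minus strand) for Spry2 and chr2:126034408-126034657 for Fgf7.

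Dusp6: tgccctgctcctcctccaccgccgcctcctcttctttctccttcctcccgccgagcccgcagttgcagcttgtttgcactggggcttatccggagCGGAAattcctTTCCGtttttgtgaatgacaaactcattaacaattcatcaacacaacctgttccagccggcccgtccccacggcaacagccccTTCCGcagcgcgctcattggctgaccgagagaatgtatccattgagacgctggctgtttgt

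Spry1: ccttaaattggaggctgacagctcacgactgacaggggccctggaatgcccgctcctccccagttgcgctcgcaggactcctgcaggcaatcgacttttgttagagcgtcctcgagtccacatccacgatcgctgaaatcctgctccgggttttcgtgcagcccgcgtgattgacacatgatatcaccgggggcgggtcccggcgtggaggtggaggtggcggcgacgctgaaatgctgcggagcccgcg

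Spry2: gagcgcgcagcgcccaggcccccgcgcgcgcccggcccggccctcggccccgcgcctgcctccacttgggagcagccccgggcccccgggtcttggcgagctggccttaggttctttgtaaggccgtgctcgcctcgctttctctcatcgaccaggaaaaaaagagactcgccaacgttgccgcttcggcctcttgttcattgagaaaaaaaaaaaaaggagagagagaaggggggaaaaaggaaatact

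Fgf7: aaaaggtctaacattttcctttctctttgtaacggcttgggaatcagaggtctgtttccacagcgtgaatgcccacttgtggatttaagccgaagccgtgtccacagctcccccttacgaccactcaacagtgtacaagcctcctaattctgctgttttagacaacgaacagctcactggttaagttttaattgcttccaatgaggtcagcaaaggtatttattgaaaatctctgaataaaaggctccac

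Of the 10 genes, 8 had promoters listed, with 9 promoters in all, and Fgfr1 and Etv4 had none. The ETS form CGGAA occurred in 1 of the 9, that of Dusp6, which held 3 copies starting 155, 144 and 61 bases before the start site. The shorter GGAA was not counted, and it does occur in the printed Spry1, Spry2 and Fgf7 promoters. Among 32851 listed mouse promoters, 25.2% held CGGAA at least once and 2.12% held 3 or more copies. The AP-1 motif TGANTCA and the cAMP response element TGACGTCA, both searched on either strand, were in 0 of the 9 promoters, against 6.75% and 1.55% of all promoters. These matches describe letters only, and no binding was measured.

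The mesenchymal cells comprised 867 GA and 1748 control cells, with close medians of 50946 and 51249 UMIs per cell. Their identity was checked on genes of the skull mesenchyme: Prrx1 was at 556 CPM (the gene's UMIs scaled to the total UMIs of the group, in the usual unit) in control and 597 CPM in GA, against 15.7 and 3.94 CPM in the remaining cells, and Col1a1 was at 25642 and 31471 CPM against 291 and 167 CPM. The leukocyte gene Ptprc was at 2.91 and 5.88 CPM in the mesenchymal cells, against 486 and 576 CPM in the rest. Clusters were built without FGF genes and named, with the suffix "-like", from markers of the 5 populations the study describes. Control and GA cells numbered 259 and 174 in Stem 1-like, 454 and 258 in Stem 2-like, 313 and 123 in multilineage progenitor-like, 65 and 77 in osteoblast-like, and 371 and 54 in fibroblastic progenitor-like cells. The fibroblastic progenitor-like share of the lineage was thus 21.2% in control and 6.23% in GA, and the osteoblast-like share 3.72% and 8.88%. A further 3 clusters stayed unnamed, led by Cadm2 and Tnc (89 and 110 cells), by Cdkn2a and Tagln (194 and 58 cells) and by the neutrophil granule genes Ltf and Ngp (3 and 13 cells). Scx, a marker of the multilineage progenitor population, was among the leading genes of the unnamed Cdkn2a and Tagln cluster. It was not among those of either cluster named multilineage progenitor-like.

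A measure of RNA from other cells differed between the libraries in the mesenchyme. The summed level of 10 neutrophil markers, all detected, was 218 CPM in control and 1828 CPM in GA mesenchymal cells, against 310596 and 336333 CPM in neutrophil-like cells. The lineage sum includes the 3 control and 13 GA cells of the Ltf and Ngp cluster, at 26061 and 52004 CPM. In GA those 13 cells held 893890 of the 47312522 lineage UMIs, so they weigh heavily on the lineage value. The summed level was also higher in GA in each named group, from 140 against 473 CPM in multilineage progenitor-like to 765 against 3256 CPM in osteoblast-like cells. Its part in the results was not tested.

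In the mesenchymal lineage as a whole, each of the 10 genes had a lower level in GA than in control, and 3 of them differed by more than 1.5-fold: Fgf7, Etv4 and Dusp6. No gene of the 10 was more than 1.5-fold higher. Among 15690 genes with at least 50 UMIs over both libraries, 7.83% were lower and 6.92% higher past the same fold. The median log2 ratio (GA over control) was −0.28 for the 10 genes and −0.02 for all genes, of which 53.2% lay below 0. The 10 genes share libraries and cells, so the common direction is 1 observation on 2 libraries and not 10 independent ones. It depended in part on the weight of each group: when the 5 named groups were weighted alike in both libraries, the median was −0.12, Fgf2 stood at 0.45, Fgf18 at 0.20 and Dusp6 at −0.18, while Fgf7 stayed at −1.21 and Etv4 at −0.89.

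**Figure D1:**
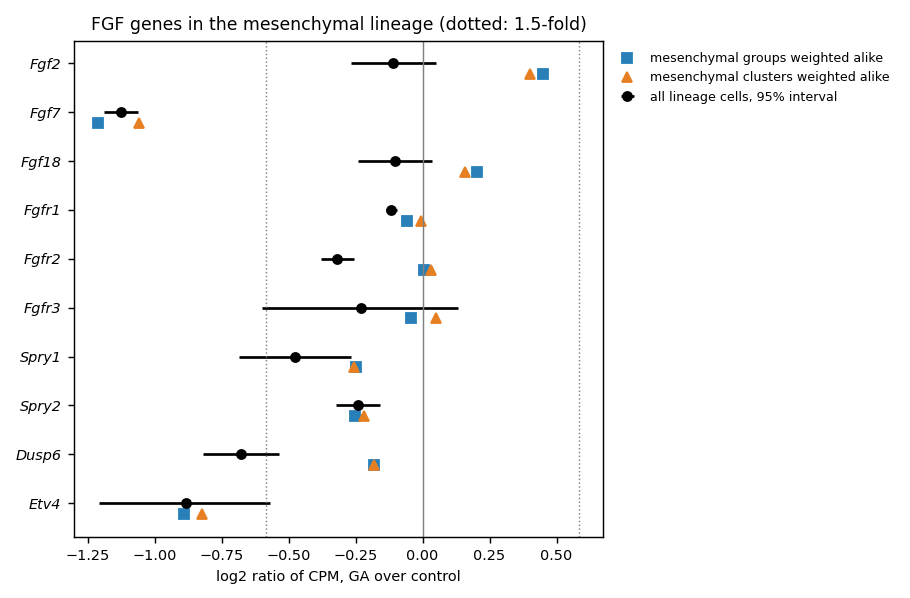
Log2 ratio of GA over control for each of the 10 genes in the mesenchymal lineage, with the exact 95% counting interval (circles and bars), with the named groups weighted alike (squares) and with the clusters weighted alike (triangles). Dotted lines mark a 1.5-fold difference; Fgf7 and Etv4 lie beyond it on each of the 3 scales, whereas Dusp6 is at −0.68 unweighted and −0.18 with groups or clusters weighted alike.

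Fgf7, the keratinocyte growth factor made by mesenchyme, showed the largest difference of the 10. It was counted 11452 times in control mesenchymal cells and 2540 times in GA, at 117 and 53.7 CPM, which was 2.18-fold lower in GA (log2 ratio −1.13, interval −1.19 to −1.06). After each cell was thinned to 5000 UMIs, 27.0% of control and 17.4% of GA mesenchymal cells carried an Fgf7 UMI. In neutrophil-like cells, which should lack the gene, the shares after thinning to 5000 UMIs were 0.37% and 0.12%. Median depths there were 5095 and 7049 UMIs per cell before thinning. Cells under 5000 UMIs, 1013 of 2086 in control and 990 of 4423 in GA, were left out of these shares. The mesenchymal shares lay far above that background. Of all Fgf7 UMIs in the kept cells, 98.0% were in the mesenchymal lineage.

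Within the lineage, Fgf7 was a gene of Stem 2-like cells, which express Cd34, Clec3b and complement genes and held 55.6% of the Fgf7 UMIs of the control lineage. Its level there was 266 CPM in control and 104 CPM in GA (log2 ratio −1.35, interval −1.44 to −1.27), and 56.2% of control and 31.4% of GA cells of the group carried a UMI after thinning. Stem 1-like cells, which hold proliferating cells, stood at 67.9 and 38.4 CPM (−0.82), and fibroblastic progenitor-like cells at 37.5 and 14.2 CPM (−1.39). Fgf7 also differed in the unnamed clusters led by Cadm2 and Tnc (137 against 43.1 CPM, −1.66) and by Cdkn2a and Tagln (128 against 52.8 CPM, −1.27). The remaining named groups did not show the difference clearly. Multilineage progenitor-like cells were at 38.6 and 34.4 CPM with an interval that included 0 (−0.42 to 0.07). Without the 5 highest cells of each library the log2 ratio there was −0.58 (interval −0.91 to −0.25). That removal takes a larger share of the 123 GA than of the 313 control cells. Osteoblast-like cells held only 3 and 4 UMIs, too few to compare.

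Stem 2-like cells of the 2 libraries were spread unequally over 3 clusters, so Fgf7 was also read cluster by cluster. The cluster led by Cxcl3 and Saa3 (203 control and 79 GA cells) held more control cells of the group than either other cluster, and the cluster led by Tek and Pi16 (112 and 106) more GA cells. Fgf7 was at 338 CPM in control and 147 CPM in GA in the first, at 85.9 and 43.6 CPM in the second, and at 288 and 141 CPM in the third cluster of the group, led by Thbs4 and Angptl1. The difference was therefore present inside each of the 3 clusters. Over the 12 mesenchymal clusters with at least 10 cells in each library, Fgf7 was lower in GA in 11, the interval lay below 0 in 9, and it lay above 0 in 0 of them.

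**Figure D2:**
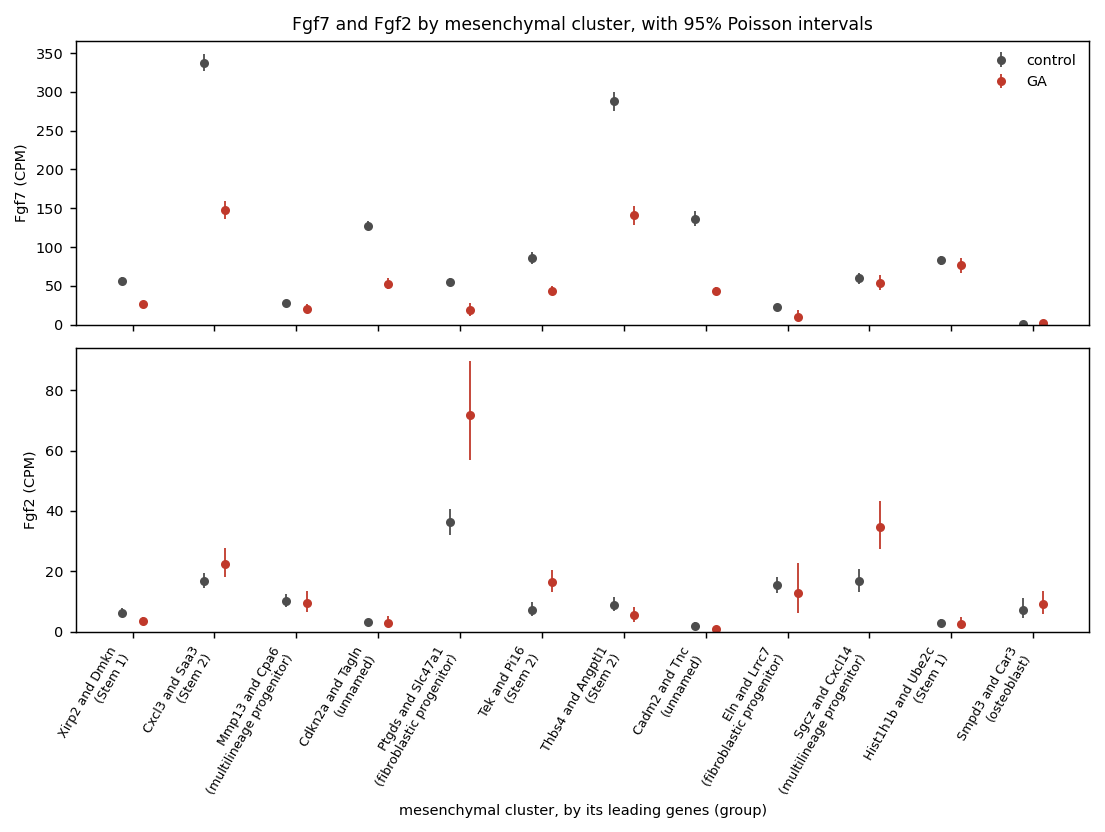
Levels of Fgf7 and Fgf2 (CPM with exact 95% Poisson intervals) in the 12 mesenchymal clusters with at least 10 cells in each library, control and GA side by side. GA lies below control for Fgf7 in 11 of the 12 clusters, while Fgf2 is lower in 7 clusters and higher in 5.

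Fgf2, the basic FGF that lacks a secretion signal, was close between the libraries over the lineage, at 1056 UMIs and 10.8 CPM in control and 474 UMIs and 10.0 CPM in GA (log2 ratio −0.11, interval −0.27 to 0.05). The group values went in both directions around that. Fgf2 was highest in fibroblastic progenitor-like cells of both libraries, at 25.2 CPM in control and 45.8 CPM in GA (0.86, interval 0.52 to 1.19), and was also higher in GA in multilineage progenitor-like cells, at 12.5 and 19.96 CPM (0.67, interval 0.31 to 1.03). Both values leaned on few cells: without the 5 cells with the most Fgf2 UMIs in each library they became −0.43 and 0.14, and of the 90 GA UMIs in fibroblastic progenitor-like cells 63 were in 5 cells. Here and below, where a group has fewer GA cells, removing 5 cells takes a larger share of GA. The removal then lowers the ratio in itself. In Stem 2-like cells Fgf2 was at 12.2 CPM in control and 15.1 CPM in GA (0.30, interval 0.03 to 0.57). There the log2 ratio was 0.49 (interval 0.17 to 0.81) without the 5 highest cells of each library. Stem 1-like cells were lowest of the named groups, at 4.69 and 3.22 CPM. The Fgf2 gene (chr3:37348346-37410108, plus strand) overlaps 4 genes, 1 on the same strand and 3 on the opposite strand, the latter including Nudt6 and Fgf2os.

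Fgf18, the ligand most closely tied to calvarial osteogenesis, was at 1404 UMIs and 14.4 CPM in control and 633 UMIs and 13.4 CPM in GA (−0.10, interval −0.24 to 0.03). Like Fgf2 it was highest in fibroblastic progenitor-like cells, at 29.6 CPM in control and 29.5 CPM in GA. Of the 58 GA UMIs there 35 were in 5 cells, and without the 5 highest cells of each library the log2 ratio was −0.97 (interval −1.65 to −0.37). That removal takes a larger share of the 54 GA than of the 371 control cells. It therefore lowers the ratio in itself and does not show a lower level in GA. Fgf18 was low in osteoblast-like cells, with 8 and 6 UMIs. Multilineage progenitor-like cells were named from markers that include the tendon genes Scx and Fmod. They held Fgf18 at 11.2 CPM in control and 21.3 CPM in GA (0.92, interval 0.56 to 1.28). Without the 5 cells highest for the gene in each library the log2 ratio was 0.65. Stem 2-like cells held Fgf18 at 16.2 CPM in control and 20.6 CPM in GA (0.35, interval 0.12 to 0.58). Their log2 ratio was 0.41 (interval 0.16 to 0.66) after the same removal. In GA the intervals of the fibroblastic, multilineage and Stem 2-like levels overlapped in turn, whereas in control the fibroblastic level stood clear of the rest.

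**Figure D3:**
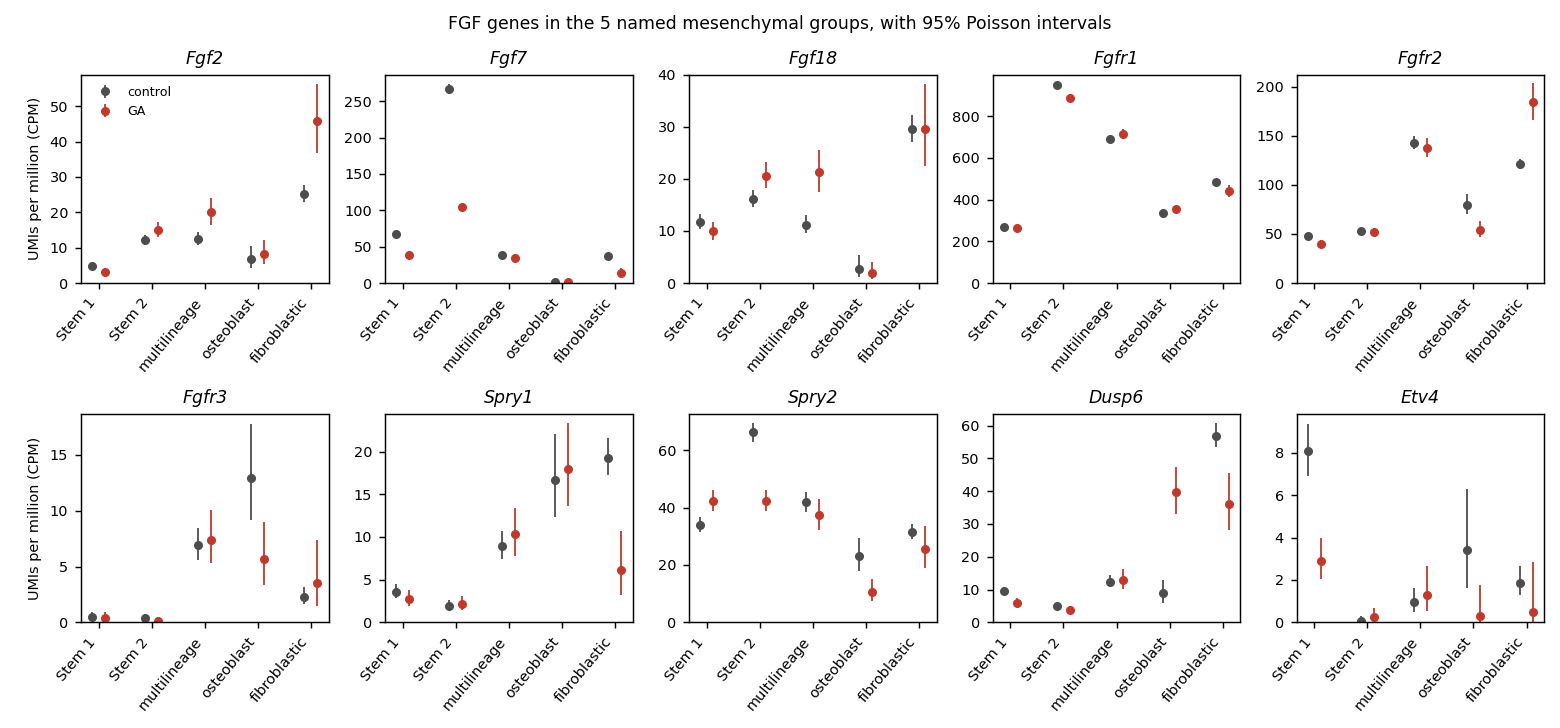
Levels of the 10 FGF genes (CPM, linear axis from 0, own scale per gene) in the 5 named mesenchymal groups, control and GA, with exact 95% Poisson intervals. Fgf7 and Fgfr1 peak in Stem 2-like cells in both libraries, Fgf2 and Fgf18 in fibroblastic progenitor-like cells and Etv4 in Stem 1-like cells, and Dusp6 in osteoblast-like cells is at 8.87 CPM in control and 39.8 CPM in GA.

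The receptors varied less between the libraries than between groups, and 0 of the 3 passed 1.5-fold over the lineage. Fgfr1, the main receptor of mesenchymal progenitors (chr8:25513654-25575718, plus strand), was counted 56371 and 25166 times, at 577 CPM in control and 532 CPM in GA (−0.12, interval −0.14 to −0.10), and 83.8% and 78.1% of the thinned cells carried a UMI. Its order of groups was identical in the 2 libraries, with no overlap between neighboring intervals: Stem 2-like (952 and 889 CPM), multilineage progenitor-like (691 and 715 CPM), fibroblastic progenitor-like (482 and 442 CPM), osteoblast-like (334 and 354 CPM) and Stem 1-like cells (269 and 264 CPM). Of its UMIs in kept cells, 97.2% were in the mesenchymal lineage. Among thinned control cells, 90.9% of those with an Fgf7 UMI and 81.2% of those without also carried an Fgfr1 UMI, against 28.7% and 33.5% for Fgfr2. In GA these shares were 83.3% and 77.0% for Fgfr1, and 21.3% and 27.2% for Fgfr2. They pool all groups of the lineage, and Fgf7 and Fgfr1 were both highest in Stem 2-like cells. Shares within a group were not computed.

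Fgfr2, whose isoforms divide between mesenchyme and epithelium, was at 7786 UMIs and 79.7 CPM in control and 3024 UMIs and 63.9 CPM in GA (−0.32, interval −0.38 to −0.26). The deposited values do not separate the isoforms. Its highest group was multilineage progenitor-like in control, at 143 CPM against 138 CPM in GA, and fibroblastic progenitor-like in GA, at 184 CPM against 121 CPM in control (0.60, interval 0.44 to 0.76, and 0.25 without the 5 highest cells of each library). Osteoblast-like cells were at 79.8 and 54.3 CPM (−0.56, interval −0.85 to −0.26). Only 59.5% of Fgfr2 UMIs were in the mesenchymal lineage, with the rest in the other cells described below. Its annotated span in GENCODE vM21, chr7:130162451-133123350 on the minus strand, covers 2960900 bases because 1 of its 27 transcripts reaches the far end, and 69 other genes overlap it, whereas the RefSeq span is 104358 bases. Whether intronic reads were counted is not given in the sources used here, so how far reads from those neighbors entered the Fgfr2 values was not tested.

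Fgfr3, a receptor of chondrocytes and maturing osteoblasts, was sparse, with 218 UMIs in control and 90 in GA (2.23 and 1.90 CPM, −0.23, interval −0.60 to 0.13). Osteoblast-like cells stood at 13.0 CPM in control and 5.69 CPM in GA, from 38 and 18 UMIs (−1.19, interval −2.09 to −0.34), and multilineage progenitor-like cells at 6.91 and 7.39 CPM. Stem 1-like cells were at 0.51 and 0.38 CPM and Stem 2-like cells at 0.38 and 0.08 CPM, the latter from 9 and 1 UMIs. Fgfr3 was thus held by osteoblast-like and multilineage progenitor-like cells in both libraries, and in GA the intervals of these groups and of fibroblastic progenitor-like cells overlapped in turn.

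The feedback and target genes held the other 2 differences past 1.5-fold over the lineage. Dusp6, the phosphatase that inactivates ERK, was at 1717 UMIs and 17.6 CPM in control and 520 UMIs and 10.99 CPM in GA, 1.60-fold lower in GA (log2 ratio −0.68, interval −0.82 to −0.53). In control, 55.2% of its lineage UMIs were in fibroblastic progenitor-like cells, the group whose share of the lineage was smaller in GA. Within that group Dusp6 was at 56.9 CPM in control and 36.1 CPM in GA (−0.66, interval −1.03 to −0.31), with a UMI in 241 of 371 and 27 of 54 cells. Stem 1-like cells were at 9.52 and 5.98 CPM (−0.67, interval −1.06 to −0.29), a value past 1.5-fold in 3 of 13 clusterings (range −0.77 to −0.27). Their difference was in the cluster led by Xirp2 and Dmkn (7.86 and 4.18 CPM, −0.91), while the cluster led by the cell cycle genes Hist1h1b and Ube2c was at 11.7 and 11.5 CPM (−0.03). Multilineage progenitor-like cells were at 12.4 and 12.9 CPM.

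Osteoblast-like cells went the other way for Dusp6. There it was at 8.87 CPM in control and 39.8 CPM in GA, from 26 and 126 UMIs (log2 ratio 2.17, interval 1.55 to 2.83), with a UMI in 13 of 65 control and 31 of 77 GA cells. The median log2 ratio of all genes tested in this group was −0.16. The 5 cells with the most Dusp6 held 17 of the control and 65 of the GA UMIs, the highest single cells holding 6 and 28. Without those 5 cells in each library the log2 ratio was 2.62 (interval 1.60 to 3.82), from only 9 control and 61 GA UMIs. That removal takes a larger share of the 65 control than of the 77 GA cells, so it raises the ratio in itself. Over 13 clusterings the ratio with all cells ranged from 1.8 to 3.44. After thinning to 5000 UMIs, 4.76% of control cells (exact interval 0.99 to 13.3%) and 9.46% of GA cells (3.89 to 18.5%) carried a UMI, and these intervals overlapped. The difference therefore stood in the UMI totals, while at matched low depth the share of cells did not separate the libraries. Neutrophil markers were at 765 CPM in control and 3256 CPM in GA in these osteoblast-like cells, and neutrophil-like cells themselves held Dusp6 at 50.7 and 39.4 CPM. The part of neutrophil RNA in this difference was not tested.

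**Figure D4:**
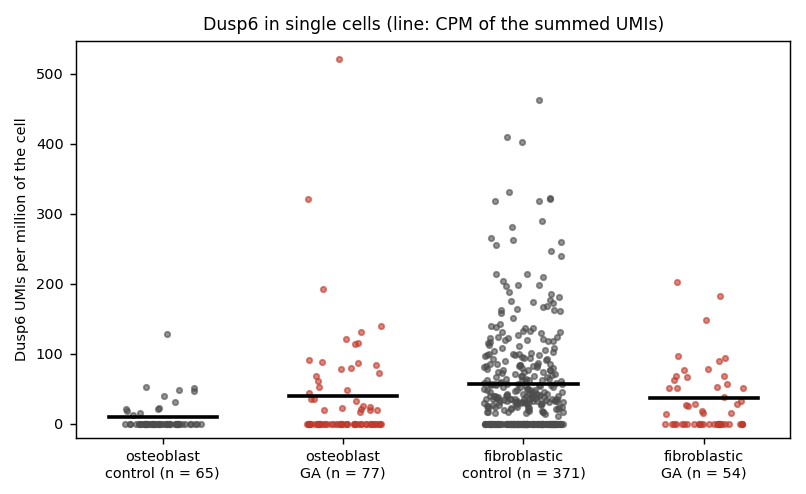
Dusp6 in single osteoblast-like and fibroblastic progenitor-like cells of the control and GA libraries, as CPM of each cell, 1 point per cell, with a line at the CPM of the summed UMIs. In osteoblast-like cells 13 of 65 control and 31 of 77 GA cells hold a UMI, with at most 6 and 28 UMIs in a cell; in fibroblastic progenitor-like cells the counts are 241 of 371 and 27 of 54.

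Etv4, an ETS transcription factor induced by FGF through ERK (chr11:101769742-101785371, minus strand), was counted 400 times in control and 105 times in GA, at 4.09 and 2.22 CPM, 1.84-fold lower in GA (−0.88, interval −1.21 to −0.57). Stem 1-like cells were the named group with the highest Etv4 in both libraries, at 8.08 CPM in control and 2.92 CPM in GA (−1.47, interval −2.02 to −0.96), with a UMI in 94 of 259 and 23 of 174 cells. Both clusters of the group had the difference, at 5.90 and 2.45 CPM in the cluster led by Xirp2 and Dmkn (−1.27) and at 10.9 and 4.34 CPM in the cell cycle cluster led by Hist1h1b and Ube2c (−1.33). The unnamed cluster led by Cadm2 and Tnc was at 8.01 and 2.19 CPM (−1.87, interval −2.84 to −0.99). The unnamed cluster led by Cdkn2a and Tagln did not differ beyond counting error, at 9.52 and 10.1 CPM (0.09, interval −0.47 to 0.62). Stem 2-like cells, where Fgf7 was highest, held only 2 and 3 Etv4 UMIs, which is at or under the floor of 3 counts.

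Spry1, a Sprouty inhibitor of receptor tyrosine kinase signaling (chr3:37639947-37644598, plus strand), was at 729 UMIs and 7.46 CPM in control and 254 UMIs and 5.37 CPM in GA (−0.47, interval −0.69 to −0.27). Fibroblastic progenitor-like cells held 44.0% of its control UMIs and stood at 19.3 CPM in control and 6.11 CPM in GA, from 321 and 12 UMIs (−1.66, interval −2.63 to −0.84). Both clusters of that group had the lower value in GA, at 21.6 and 3.64 CPM in the cluster led by Ptgds and Slc47a1 and at 17.3 and 9.24 CPM in the cluster led by Eln and Lrrc7, with an interval that included 0 in the latter. The intervals of the other named groups included 0, with osteoblast-like cells at 16.7 and 18.0 CPM, multilineage progenitor-like cells at 8.95 and 10.3 CPM and Stem 2-like cells at 1.97 and 2.14 CPM. The cluster led by Cdkn2a and Tagln was higher in GA, at 6.19 and 9.88 CPM (0.67, interval 0.07 to 1.25).

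Spry2 (chr14:105891947-105896819, minus strand) was at 4197 UMIs and 42.9 CPM in control and 1720 UMIs and 36.4 CPM in GA (−0.24, interval −0.32 to −0.16). In Stem 2-like cells it was lower in GA, at 66.3 and 42.2 CPM (−0.65, interval −0.79 to −0.51), where each of the 3 clusters had the lower value in GA (65.4 and 42.4 CPM, 46.8 and 35.5 CPM, and 81.2 and 51.1 CPM), and was higher in GA in Stem 1-like cells, at 34.0 and 42.4 CPM (0.32, interval 0.16 to 0.48). Osteoblast-like cells were at 23.2 and 10.7 CPM from 68 and 34 UMIs (−1.11, interval −1.75 to −0.50), but the direction there turned in 7 of the other clusterings, so it rests on which cells the group held. Over the 12 clusters Spry2 was lower in GA in 11, with the interval below 0 in 4 and above 0 in 1.

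By group, the FGF genes past 1.5-fold went in both directions, and not all 10 had the 50 UMIs needed to count. In Stem 1-like cells 3 of 9 were lower (Fgf7, Dusp6 and Etv4; 6.18% of all genes tested there were lower) and 0 higher (background 6.14%). Stem 2-like cells had 2 of 8 lower (Fgf7 and Spry2; background 5.7%) and 0 higher (background 7.97%). Multilineage progenitor-like cells had 0 of 9 lower (background 4.34%) and 2 higher (Fgf2 and Fgf18; background 5.27%). Osteoblast-like cells had 2 of 6 lower (Fgfr3 and Spry2; background 15.1%) and 1 higher (Dusp6; background 4.65%). Fibroblastic progenitor-like cells had 3 of 8 lower (Fgf7, Spry1 and Dusp6; background 7.92%) and 2 higher (Fgf2 and Fgfr2; background 12.1%). The clusters led by Cadm2 and Tnc and by Cdkn2a and Tagln had 2 of 8 and 1 of 9 lower (backgrounds 6.51% and 6.29%), and they had 0 and 1 higher (Spry1 in the latter; backgrounds 6.78% and 7.21%). Fgf7 recurred in 5 of these 7 groups and clusters, and no other gene of the 10 in more than 3. The same cells and libraries underlie each count, and fewer cells of a kind cannot be told apart from less RNA of the gene per cell where a group was itself a mixture of clusters.

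The wider FGF pathway in the mesenchymal lineage was read from 58 further genes, listed with earlier results of these data known, of which 42 had at least 50 UMIs. Past 1.5-fold, 4 of the 42 were lower and 3 higher in GA, against 7.83% and 6.92% of all genes, so these counts were near the background and are not a result about the pathway. The other 35 lay within, and the median log2 ratio was −0.16. The genes named next are given for their own values. None of the 8 adaptor genes, which include Frs2, Grb2 and Sos1, passed 1.5-fold. Of 15 other feedback and target genes, 2 ERK phosphatases were lower, Dusp5 at 41.0 CPM in control and 24.5 CPM in GA (−0.74) and Dusp4 at 9.49 and 4.99 CPM (−0.93), and the immediate early gene Egr1 was higher, at 457 and 718 CPM (0.65). Etv5, the ETS factor closest to Etv4, was at −0.23 and Spry4 at −0.27, both within 1.5-fold, as were Spred1 (−0.49) and Spred2 (−0.41), which inhibit Ras activation. Of 12 measured receptors and co-receptors, the adhesion protein gene Flrt3 (−0.68) and the FGF carrier gene Fgfbp3 (−0.99) were lower. These lineage values pool groups whose shares differed between the libraries. Flrt3 was at 28.9 CPM in control and 12.7 CPM in GA in fibroblastic progenitor-like cells. In osteoblast-like cells it was higher in GA, at 4.09 and 13.6 CPM from 12 and 43 UMIs, and in the other named groups it was lower.

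Of 7 other FGF family genes measured, 2 were higher in GA past 1.5-fold, and a large part of their UMIs was in few cells. Fgf1, a ligand that binds each of the FGF receptors, was at 4.64 CPM in control and 13.2 CPM in GA (1.51), from 453 and 625 UMIs, of which 232 and 435 were in a small osteoblast-like cluster of 5 control and 11 GA cells led by Ptprz1 and Fgf1. Within that cluster the level was lower in GA, at 1449 CPM in control and 1038 CPM in GA, and single cells held 161 of the 232 and 242 of the 435 UMIs. Outside the osteoblast-like group, Fgf1 was higher in GA in Stem 1-like (3.85 and 8.13 CPM) and Stem 2-like cells (3.01 and 4.53 CPM). Fibroblastic progenitor-like cells were at 2.65 and 5.09 CPM (44 and 10 UMIs). Multilineage progenitor-like cells went the other way, at 0.66 and 0.18 CPM (9 and 1 UMIs). Fgf23, the phosphate hormone of osteocytes, was counted 15 times in control and 45 times in GA (2.63), and 33 of the 45 were in 1 cell.

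Few UMIs of the ligands and Etv4 were outside the mesenchyme, in contrast to Dusp6 and the Sprouty genes. The mesenchymal lineage held 96.6% of Fgf2, 97.7% of Fgf18 and 91.3% of Etv4 UMIs, against 73.0% of Spry2, 54.5% of Spry1 and 27.1% of Dusp6 UMIs. Endothelial-like cells (42 control and 51 GA) had the highest Spry1 and Dusp6 of the named groups, at 102 and 116 CPM for Spry1 and 166 and 175 CPM for Dusp6. Osteoclast-like cells (58 and 29) followed for Spry1, at 53.3 and 49.2 CPM. Spry2 was at 154 and 132 CPM in basophil or mast-like cells (36 and 35) and at 109 and 82.7 CPM in T or NK-like cells. Basophil or mast-like cells also held Fgfr2 at 178 and 183 CPM, and B-like cells at 73.3 and 70.1 CPM. How far reads of genes that overlap Fgfr2 entered its values in blood cells, here and below, was not tested.

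Neutrophil-like cells (2086 control and 4423 GA) were the largest population and held Dusp6 at 50.7 CPM in control and 39.4 CPM in GA (−0.36) and Fgfr2 at 45.8 and 36.9 CPM. Of the 4 FGF genes with at least 50 UMIs there, only Fgfr1 passed 1.5-fold, at 3.36 and 1.26 CPM. In that comparison 10.5% of genes were lower and 1.61% higher, and the median log2 ratio of all genes was −0.16. The Fgfr1 level is small beside 577 and 532 CPM in the mesenchyme. In macrophage or monocyte-like cells (1696 and 1095) Dusp6 was at 30.2 and 37.9 CPM (0.33). There 0 of the 5 genes with at least 50 UMIs passed 1.5-fold (backgrounds 4.44% lower and 7.45% higher). The count was also 0 in T or NK-like cells, out of 2 genes with enough UMIs (backgrounds 5.82% and 2.64%). In erythroid-like cells it was 0 out of 1 (9.93% and 5.51%). So few genes say little about the 10. Dusp6 was past 1.5-fold in opposite directions in dendritic-like and HSC-like cells. In dendritic-like cells it was at 12.1 and 28.7 CPM (1.25, backgrounds 6.67% higher and 6.71% lower). In HSC-like cells it was at 7.06 and 3.10 CPM (−1.18, backgrounds 4.39% lower and 3.86% higher). The HSC-like clusters were led by Nrg1 and F13a1 and by the granule protease genes Elane and Prtn3. Their name comes from a list of Kit, Cd34, Cdk6 and granulocyte progenitor genes and does not mark stem cells. Spry2 was lower in HSC-like cells, at 12.6 and 8.21 CPM (−0.62), and higher in B-like cells, at 5.26 and 8.08 CPM (0.62; backgrounds 2.26% higher and 2.25% lower). In dendritic-like, HSC-like and B-like cells, only 3 of the 10 genes each had at least 50 UMIs.

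**Figure D5:**
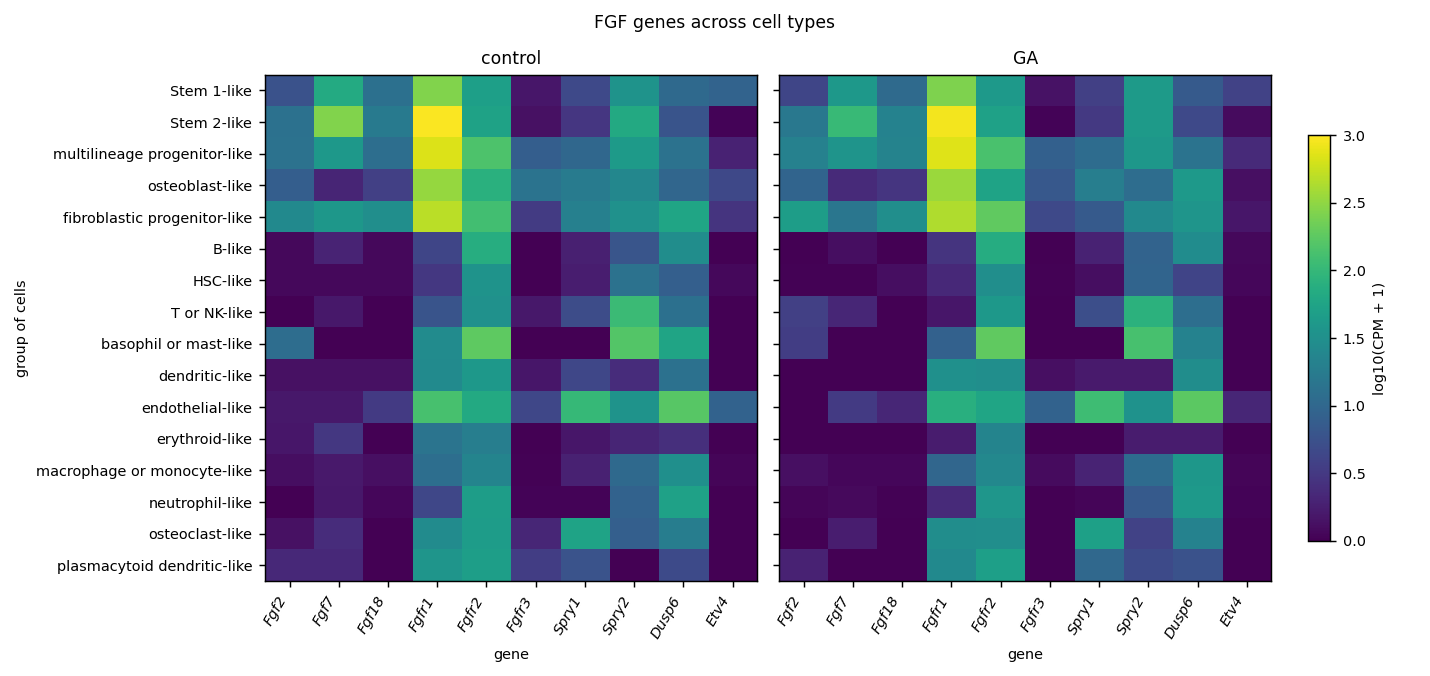
Levels of the 10 FGF genes as log10(CPM + 1) in 16 named groups of cells, with control in the left panel and GA in the right. The ligands, Fgfr1 and Etv4 are concentrated in mesenchymal groups, whereas Spry1 and Dusp6 are highest in endothelial-like cells and Fgfr2 and Spry2 extend to basophil or mast-like cells. The part of overlapping genes in the Fgfr2 values was not tested.

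Across 32 profiles (16 named groups in each of 2 libraries) the 10 genes did not share a single pattern. By Pearson correlation of log2(CPM + 1), given as a description since the profiles share libraries and depth, the ligands Fgf7 and Fgf18 were alike (0.91), as were Fgf18 and Fgfr1 (0.85) and Fgf2 and Fgf18 (0.84). Most of the 16 groups lie outside the mesenchyme, where few UMIs of the ligands and Fgfr1 were found. Their correlations, here and below, therefore hold the contrast of mesenchyme with other cells. Correlations within the lineage were not computed. In control, Fgf7 was at 266 CPM in Stem 2-like and 37.5 CPM in fibroblastic progenitor-like cells, and Fgf18 at 16.2 and 29.6 CPM. The 6 pairs of feedback and target genes ranged from 0.12 (Spry1 and Spry2) to 0.47 (Spry1 and Etv4), and the ligand Fgf7 and Dusp6 stood at −0.18. Among 11576 genes reaching 20 CPM in some profile, the pair most like Fgf7 was B830012L14Rik and Mirg (both 0.98), for Fgf18 Arhgap44 (0.98) and Lrp3 (0.97), for Fgf2 Smarca1 (0.92) and Slc4a4 (0.91), and for Fgfr1 Pofut2 and Maged1 (both 0.94). Fgfr2 had Gpsm1 (0.82) and Gm49890 (0.81), and Fgfr3 had Lmo7 and Sybu (both 0.91). The closest genes were Tmem204 and Cd200 for Spry1 (both 0.87), Cuedc1 (0.84) and Rab27b (0.79) for Spry2, Ppp3ca (0.76) and Numb (0.73) for Dusp6, and Cdh13 (0.84) and Ttll7 (0.81) for Etv4.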

How the data were processed

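Single-cell 3′ RNA-seq (10x Genomics) was run on 1 library per condition, and the authors deposited filtered gene by barcode matrices of raw UMI counts. Their headers record Cell Ranger 7.0.1 and the submitters' processing notes mm10, whereas the study's methods give another Cell Ranger version and 2 different 3′ kits, so the kit is uncertain. Cells with 500 to 140000 UMIs, 200 to 9500 genes and at most 15% mitochondrial UMIs were kept, following the study's limits. Scrublet's automatic call marked 0 GA and 32 control barcodes, so instead the highest doublet scores were removed, a share that grew with the number of barcodes (660 GA and 538 control cells). Pearson residuals of 2000 variable genes without any listed FGF gene, 50 principal components, Harmony and Leiden clustering (15 neighbors, resolution 1) gave 34 clusters, and the mesenchymal cells were reclustered into 14 (scanpy 1.11.5, Python 3.11.15). A cluster was named "-like" when at least 3 markers were in 10% of its cells and 2-fold enriched, a rule set after seeing the data. UMIs were summed per group and library and given as CPM with exact Poisson 95% intervals. Log2 ratios carry exact conditional binomial intervals, and a gene counted as higher or lower past 1.5-fold with at least 50 UMIs over both libraries. For shares of cells, every cell was first thinned to a depth of 5000 UMIs and shallower cells were left out (2 control and 3 GA in the lineage), with exact binomial intervals. The ratio and thinning calculations were tested on simulated counts drawn without extra variation between cells. That test therefore does not cover intervals for genes whose UMIs lie in few cells. No p-value was computed. The 10 genes and the pathway lists were chosen with earlier results of these data known. Named in the text were the 10 genes, listed FGF pathway genes past 1.5-fold (others are given as context, chosen after their values were seen) and the 2 genes most correlated with each of the 10. Overlaps were read from GENCODE vM21.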

Additional observations from a re-analysis of the deposited data

Results flagged for a closer look

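Dusp6 differed in opposite directions between groups of the mesenchymal lineage. Its log2 ratio of GA over control was 2.17 in osteoblast-like cells, against −0.67 in Stem 1-like and −0.66 in fibroblastic progenitor-like cells, with intervals on either side of 0. The difference between the groups was not tested, since each condition was 1 library.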

How the results depend on the processing

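Fgf7 (log2 ratio −1.21 to −1.02) and Etv4 (−1.10 to −0.82) stayed past 1.5-fold in the lineage under 16 of 16 alternatives, and Dusp6 (−0.91 to −0.18) under 14. Fgf2 ranged from −0.19 to 0.45, Fgf18 from −0.16 to 0.20, Fgfr1 from −0.18 to −0.01, Fgfr2 from −0.36 to 0.03, Fgfr3 from −0.51 to 0.05, Spry1 from −0.92 to −0.25 and Spry2 from −0.29 to −0.04. The lineage count of 3 lower was 1 past 2-fold, 2 with groups or clusters weighted alike and 4 with thinned cells or with each cell weighted alike. The median of the 10 genes was −0.43 with thinned cells, −0.38 without the 5 highest cells, −0.12 with groups and −0.094 with clusters weighted alike. Without the 5 highest cells, which are a larger share of the smaller GA groups, multilineage progenitor-like cells had 1 higher in place of 2, and fibroblastic progenitor-like cells 5 lower and 0 higher in place of 3 and 2, with Fgf2 at −0.43. Spry2 in osteoblast-like cells turned to 0.22 with no batch correction, 0.27 at resolution 2, 0.37 with log1p scaling, and 0.27, 0.29, 0.042 and 0.30 under Leiden seeds 2, 3, 5 and 6; the cause was not tested. The highest group changed, as the log2 gap to the next, for Fgfr2 (−0.10 at resolution 2, −0.058 with seed 3, −0.42 in GA alone), Fgfr3 (−0.054 with seed 2, −0.21 with seed 6, −0.38 in GA alone), Spry1 (−0.0070 at resolution 0.5, −1.56 in GA alone), Spry2 (−0.0066 in GA alone) and Dusp6 (−0.14 in GA alone). No paired analysis was possible because each condition was 1 pooled library, and for the same reason no replicate could be left out. Depth limits Fgfr3, Etv4 and Spry1 most in groups with under 20 UMIs in a library. The clusters weighted alike, the removal of the 16 granule gene cells and the values by group were added after seeing the data.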
